A study of Mus musculus with 12 samples.

Results

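The purinergic receptors and ectonucleotidases are a set of 10 genes, chosen by name: the ATP-gated channels P2rx4 and P2rx7, the G protein-coupled nucleotide receptors P2ry2, P2ry6, P2ry10 and P2ry14, the adenosine receptors Adora2a and Adora3, and the surface enzymes Entpd1 and Nt5e. Every ATAC-seq peak annotated to one of them was taken. This gave 71 of 60288 merged peaks in untreated mice and 67 of 54953 after lipopolysaccharide (LPS, a bacterial endotoxin). Of the 10 genes, 9 had at least 1 peak in both tables, and P2ry10 had none in either. ATAC-seq marks accessible DNA by the insertion of adapters with a transposase, so a higher tag count at a peak stands for more accessible chromatin, not for more transcript. The cells were brain macrophages from bone marrow (BM) chimeras. Wild type C57BL/6J recipients were irradiated with 950 cGy and given donor marrow, so all 4 groups share the irradiation and the transplant. In the study the CD45.1 cells descend from the graft and the CD45.2 cells are the host's own microglia, both sorted from the same brain, by CD45 allele, as CD11b+ cells low for CD45 and negative for Ly6C and Ly6G. Both populations were taken from untreated mice numbered 4, 5 and 6, and from mice numbered 1, 2 and 3 that were killed 12 h after 2.5 mg/kg of LPS, which makes 4 groups of 3 libraries. The labels name intervals of 3.5 and 9 months between transplant and analysis without tying either to a mouse, and they give no ages. The study's text places the ATAC-seq and the LPS challenge at the longer interval. No mouse without irradiation was profiled, so host microglia that had never been irradiated are not represented.

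Extracellular ATP and UTP leave damaged or active cells and act on microglia through P2X channels and P2Y receptors. Entpd1 (the antigen CD39) strips phosphates from ATP and ADP to leave AMP, Nt5e (CD73) turns AMP into adenosine, and adenosine then signals through its own receptors. In microglia this chain is known for steering process movement towards injury, for phagocytosis and for activation of the inflammasome.

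Sequences are shown for the 4 peaks that differed between the populations in untreated mice by the study's limits (over 4-fold at an adjusted p under 0.01), with the P2ry6 promoter, which did not pass them, for contrast. For the promoter peaks the bases beyond the start site are left out. All are given on the plus strand of mm9, from the reference. The Adora2a peak at -16868 bp from the start site lies at chr10:74762697-74762812 and the one at -40247 bp at chr10:74739322-74739428. The other stretches are chr3:105707245-105707338 at the Adora3 promoter, chr5:123119217-123119321 in an intron of P2rx7, and chr7:108112906-108112999 at the P2ry6 promoter. Capitals mark matches to the motif letters searched.
Adora2a at -16868 bp: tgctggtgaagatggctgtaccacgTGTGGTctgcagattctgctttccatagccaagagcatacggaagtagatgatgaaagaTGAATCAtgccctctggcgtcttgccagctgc
Adora2a at -40247 bp: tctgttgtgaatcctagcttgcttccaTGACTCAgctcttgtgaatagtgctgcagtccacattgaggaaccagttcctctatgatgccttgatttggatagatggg
Adora3 promoter: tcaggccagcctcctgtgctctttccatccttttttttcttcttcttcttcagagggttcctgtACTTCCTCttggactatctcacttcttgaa
P2rx7 at 18836 bp: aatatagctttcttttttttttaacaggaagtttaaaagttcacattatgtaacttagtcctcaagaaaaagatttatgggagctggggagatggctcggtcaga
P2ry6 promoter: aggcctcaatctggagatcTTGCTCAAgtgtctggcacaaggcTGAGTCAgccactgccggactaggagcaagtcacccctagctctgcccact

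Both Adora2a peaks hold a match to the AP-1 letters TGANTCA, and the nearer one also holds the RUNX letters TGTGGT. The Adora3 promoter stretch holds the reverse complement of the PU.1 letters GAGGAAGT, and the 200 bp window around that peak also holds AP-1 letters, outside the bases printed. The P2ry6 promoter holds a C/EBP match (TTGCNNAA) and an AP-1 match. The P2rx7 stretch holds none of the 5 motifs searched, the last of them the IRF letters GAAANNGAA. Over windows of 200 bp around the peak centres, on both strands, AP-1 letters were found in 8.12% of all untreated windows and in 12 of the 71 windows of the purinergic genes. The shares were 9.46% and 8 of 71 for PU.1, 9.82% and 6 of 71 for C/EBP, 8.36% and 6 of 71 for IRF, and 15.8% and 16 of 71 for RUNX. After LPS the share of windows with AP-1 letters was 13.4% over all peaks, with 15 of the 67 member windows. Such short words occur often, and a match describes the letters, not a bound factor.

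The untreated libraries held 8392877.5 to 9107770 tags and the LPS libraries 2966364 to 6556594.5. In 11 of the 12 libraries 26.3% to 39.0% of the tags fell in merged peaks. The CD45.2 library of untreated mouse 4 stood apart, with 18.4%, and each call at a member or pathway gene in untreated mice is also given without it. All 7 macrophage marker genes (Csf1r, Spi1, Itgam and others) had peaks, and the smallest adjusted p between the populations was 0.216 untreated and 0.730 after LPS. Of 6 microglia markers, 3 were called lower in CD45.1 in untreated mice, among them Sall1, a factor that defines microglia, with a mean of 111 normalized tags against 1042, and 2 after LPS. Markers of other cells also moved. In untreated mice, of the T and NK cell list, 4 of 8 genes had peaks, with 2 higher (Cd3d and Ncr1) and 1 lower (Klrb1c) in CD45.1. The list summed to 805 to 882 normalized tags in CD45.1 libraries against 884 to 1181 in CD45.2. Of the B cell list, 2 of 4 genes had peaks and Ms4a1 was higher, with list sums of 139 to 162 against 71.2 to 92.3. Cd3e, Cd3g, Trac, Cd8a, Cd79a and Pax5 had no peak. All 3 neuron genes were lower in CD45.1, with sums of 27.5 to 39.4 against 171 to 202. In CD45.1, 1 of 2 neutrophil genes with a peak (S100a9), 2 of 4 astrocyte genes (Slc1a2 and Aldh1l1), 1 of 4 oligodendrocyte genes and 1 of 4 endothelial genes were also lower. After LPS the neuron sums were 15.6 to 16.8 against 53.7 to 93.4, with 2 of 3 genes lower, and Ms4a1 was again higher. Besides these, 1 oligodendrocyte gene (Mog) and 1 endothelial gene (Cdh5) were lower, and the smallest adjusted p in the T and NK cell, neutrophil and astrocyte lists were 0.201, 0.455 and 0.360. Several of these marker calls were not stable. Without the CD45.2 library of untreated mouse 4 the adjusted p was 0.387 for Klrb1c, 0.33 for S100a9 and 0.115 for Aldh1l1. With the mouse as a block it was 0.0893 for Cd3d, 0.0538 for Klrb1c, 0.141 for S100a9, 0.102 for Aldh1l1 and 0.120 for Rbfox3 in untreated mice, and 0.318 for Ms4a1 and 0.0502 for Mog after LPS. With the least favourable single library left out, Cd3d (0.0844) and Rbfox3 (0.189) in untreated mice and Ms4a1 (0.290) and Mog (0.117) after LPS were lost as well. With only peaks within 100 kb of the start site, the LPS call of Cdh5 was lost (0.0917), and Syt1 had no tested value in either treatment. The part of any of these cells in the differences below was not tested.

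In untreated mice the peaks that passed the study's limits lay at Adora2a, Adora3 and P2rx7. Peaks of P2rx4, P2ry6 and P2ry2 passed only the wider limit given below, and most other peaks of the purinergic genes passed neither. By the study's limits, 3 member peaks were higher in CD45.1 cells, at -16868 and -40247 bp of Adora2a and within P2rx7, and 1 was lower, at the Adora3 promoter. These are 4.29% and 1.43% of the 70 tested member peaks, and over all 59170 tested peaks the same limits called 3.78% higher and 2.65% lower. With the limit at an adjusted p of 0.05 and any fold, 5 member peaks were higher and 2 lower (7.14% and 2.86%), against 8.54% and 6.32% of all peaks. edgeR called more at this limit, 8 higher and 6 lower (11.4% and 8.57%, against 12.2% and 10.7% of all peaks). The 7 it added were at -21007 and 69161 bp of Entpd1, -54172 bp of Nt5e, 10078 bp of P2ry14, 24975 bp of P2rx4, -17561 bp of P2ry2 and -15018 bp of P2ry6. By either tool the shares were near or under the background. Of the tested member peaks, 85.7% differed by less than 2-fold, and 80.3% of all peaks did. After LPS, 1 of 59 tested member peaks was higher (1.69%), again upstream of Adora2a, and 0 were lower, against 1.78% and 1.19% of 49180 tested peaks by the study's limits. At the wider limit the counts were again 1 and 0 in DESeq2, against 4.08% and 2.38%, and 2 and 1 in edgeR (3.39% and 1.69%, against 7.35% and 4.67%), which added Adora2a at -40221 bp and P2ry2 at -15736 bp. At an unadjusted p under 0.05, DESeq2 gave 2 higher and 2 lower. No share over all peaks is given at that limit, so these counts are not read as a result about the purinergic genes. By the study's limits edgeR also called 0 lower. Fewer cells with an open site and less opening per cell cannot be told apart in such pooled cells.

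**Figure D1:**
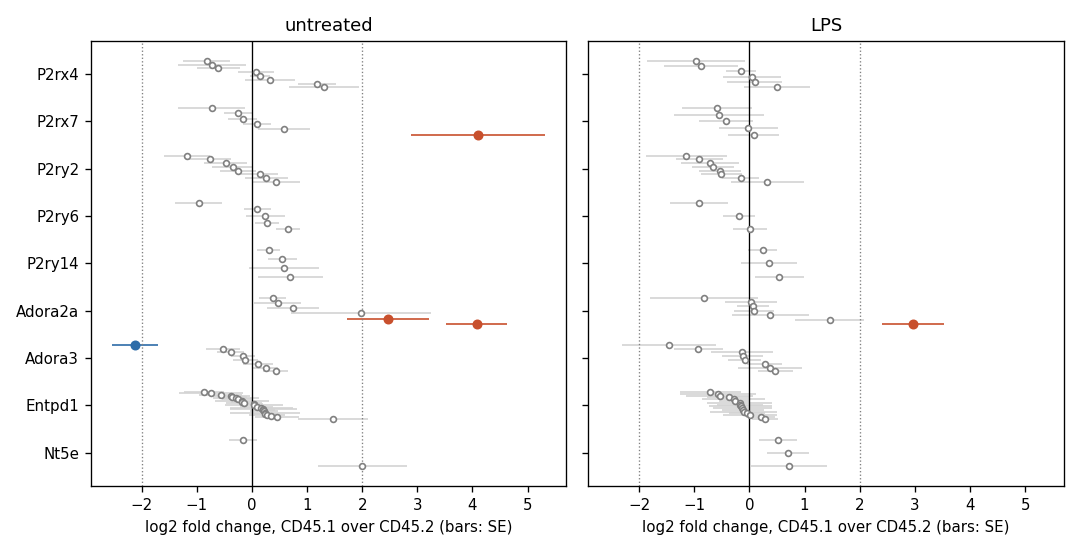
Log2 fold change of CD45.1 over CD45.2 (x axis, bars are SE) for each tested peak of the purinergic genes (rows), untreated on the left and LPS on the right; filled points passed the study's limits, orange for higher and blue for lower in CD45.1, and dotted lines mark 4-fold. Most points lie near 0, and the filled ones are 3 higher and 1 lower in untreated mice and 1 higher after LPS.

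Summed over all its peaks, Adora2a alone among the 9 genes differed between the populations in untreated mice (1 of 9 higher and 0 lower, against 7.35% and 7.46% of 16174 genes at an adjusted p under 0.05). The Adora2a sum includes the Adora2a peaks already called above. By edgeR 2 genes were higher and 0 lower, against 9.17% and 9.66% of all genes. DESeq2 at an unadjusted p under 0.05 also gave 2 higher and 0 lower. No share over all genes is given at that limit, so these counts are not read as a result. Entpd1 carried the most tags, 1062 ± 83.5 for CD45.1 cells and 1044 ± 106 for CD45.2 cells (SD, n = 3), and the sum over Nt5e was the smallest, 64.7 ± 2.71 and 65.0 ± 7.85. These sums follow the number and width of a gene's peaks, so their order is no order of accessibility per base. Likewise the most accessible peak of a gene is here the one with the highest mean of normalized tags over the 6 libraries, whatever its width. After LPS 0 of 9 genes were called in either direction by DESeq2, against 4.08% higher and 2.98% lower of 15722 genes. There, edgeR called 0 higher and 1 lower (P2ry2), against 5.76% and 4.14% of all genes. In DESeq2, 1 gene in each direction had an unadjusted p under 0.05, again with no share over all genes given and so not read as a result.

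**Figure D2:**
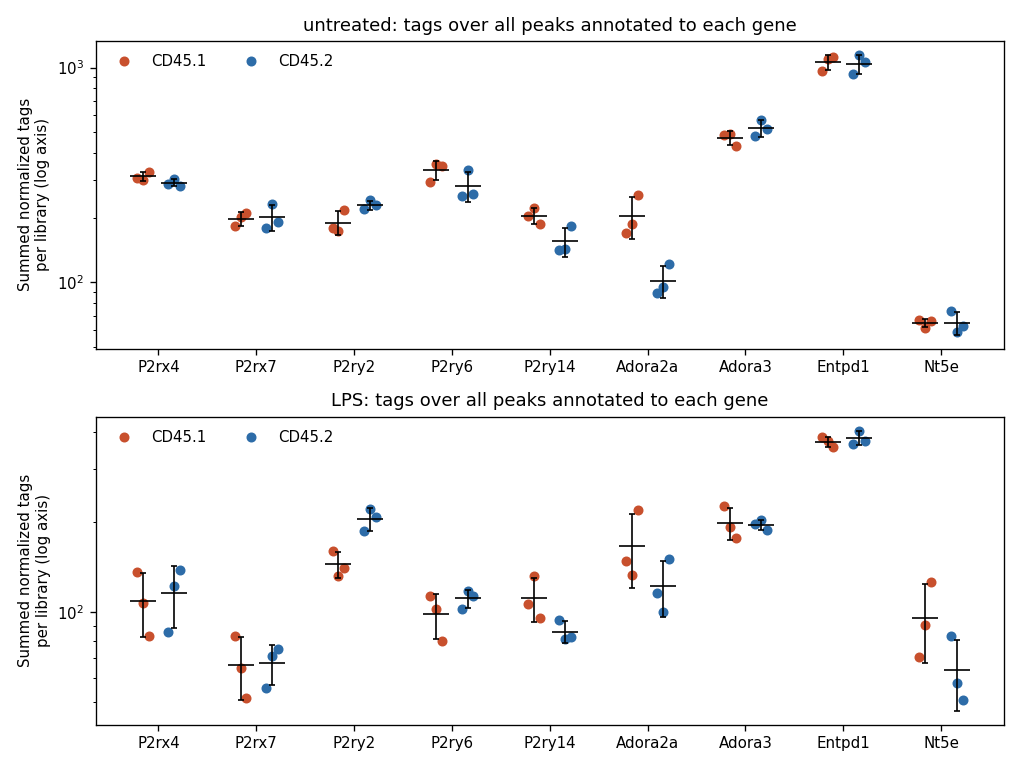
Normalized tags summed over all peaks of each gene (y axis, log scale) in every library, CD45.1 in orange and CD45.2 in blue, with the mean and SD of 3 mice; untreated above and LPS below, each on its own scale of normalization. The untreated Adora2a sums of the CD45.1 libraries lie above all 3 CD45.2 libraries, while most other genes overlap.

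Of the ATP-gated channels, P2rx7 opens at high ATP and drives the inflammasome, and P2rx4 is a more sensitive channel of activated microglia. The P2rx7 peak at 18836 bp from the nearest start site, in an intron, held 13.99, 4.11 and 16.3 normalized tags in the CD45.1 libraries of mice 4, 5 and 6, and 1.64, 0.774 and 0 in CD45.2. All CD45.1 libraries stood above all CD45.2 libraries, but the unnormalized counts were small, at 15, 4.5 and 15 against 1, 1 and 0 tags. The ratio of the summed tags was 17.5, with a 95% interval of 4.43 to 148 that covers counting error only. Only CD45.1 libraries took this peak past the filter of more than 10 tags, and neither the interval nor the tests allow for that selection. The peak passed with an adjusted p of 0.00758 in DESeq2 and 0.00227 in edgeR. With the mouse as a block the adjusted p was 0.0408, which misses the study's limit of 0.01, and without the CD45.2 library of mouse 4 it was 0.0268. The call was also lost without the CD45.1 library of mouse 4 (0.0570) or 6 (0.0536) and without the CD45.2 library of mouse 5 (0.0671) or 6 (0.0869). The peak had been found in 2 of the 6 library lists. After LPS a peak that does not overlap it, at 19033 bp, held 9.5, 3 and 4 tags in the CD45.1 libraries against 0, 0 and 1 in CD45.2. It had been found in 1 of the 6 library lists and was too low to be tested. A peak can enter the merged set through a library where it is high, so these tags are no support for the untreated call.

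The P2rx7 promoter did not pass the test. It held 56.9, 53.9 and 68.1 normalized tags in untreated CD45.1 and 50.0, 60.4 and 56.0 in CD45.2, with overlapping libraries and a log2 fold change of 0.09 (SE 0.252, adjusted p = 0.911). After LPS the same promoter held 15.4, 13.7 and 8.49 against 16.6, 16.1 and 16.9, lower in every CD45.1 library, with a log2 fold change of -0.42 (SE 0.490, adjusted p = 0.794). A weak second promoter peak, seen after LPS at -936 bp of another start site, held 4.07 ± 2.27 and 5.83 ± 2.99. The most accessible P2rx7 peak after LPS lay at 433 bp, with 16.6 ± 3.12 against 15.8 ± 3.94 (adjusted p = 0.973). Summed over its 6 untreated peaks P2rx7 held 182, 201 and 211 in CD45.1 and 179, 233 and 191 in CD45.2, and the populations overlapped.

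At P2rx4 the promoter, its most accessible peak, held 146, 133 and 187 normalized tags in untreated CD45.1 cells and 148, 141 and 133 in CD45.2, with overlapping libraries and a log2 fold change of 0.15 (SE 0.175, adjusted p = 0.730). The intergenic peak at -5151 bp held 55.5, 43.4 and 39.2 against 29.5, 15.9 and 19.9. The groups did not overlap, and the log2 fold change was 1.18 (SE 0.348). Its adjusted p was 0.00757, with less than 4-fold. With the mouse as a block it was 0.0549, and without the CD45.2 library of mouse 4 it was 0.00162. Leaving out the CD45.1 library of mouse 4 gave 0.138, and the CD45.2 library of mouse 5 or 6 gave 0.162 and 0.0892. After LPS the peak at -5169 bp held 16.9 ± 8.47 and 15.3 ± 3.84, with overlapping libraries (adjusted p = 0.967). The peak at the P2rx4 start site, annotated as exon after LPS, held 53.6 ± 8.94 against 58.0 ± 11.5 (adjusted p = 0.890). The 2 genes are neighbours, and the peak assigned to P2rx4 at -23408 bp lies in the last exon of P2rx7. The untreated peaks assigned to P2rx4 at 23956, 24532, 24784 and 24975 bp lie past its annotated end. They are annotated to the 3' UTR of the transcript NM_145358, and they enter the P2rx4 sums. Of the P2rx4 peaks, 1 untreated and 1 LPS peak were too low to be tested.

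Among the nucleotide receptors coupled to G proteins, P2ry6 answers UDP and is tied to phagocytosis. Its promoter was the only one of the P2Y promoters past an adjusted p of 0.05. It held 102, 105 and 108 normalized tags in untreated CD45.1 libraries and 59.0, 80.5 and 57.6 in CD45.2, without overlap. The log2 fold change was 0.65 (SE 0.217, adjusted p = 0.0220), less than 2-fold. The adjusted p was 0.0986 with the mouse as a block and 0.0546 without the CD45.2 library of mouse 4. It also missed the limit without any 1 of the 3 CD45.1 libraries (0.0941, 0.0899 and 0.0864) and without the CD45.2 library of mouse 6 (0.230), and with size factors from total tags (0.501). A second promoter peak at -919 bp held 34.9 ± 5.82 and 28.8 ± 10.8. The most accessible P2ry6 peak, at 13696 bp in an intron, held 114 ± 27.2 and 92.7 ± 18.2 (adjusted p = 0.525). After LPS the P2ry6 promoter held 42.5, 41.1 and 41.5 in CD45.1 and 43.8, 48.8 and 48.4 in CD45.2. The CD45.2 libraries now lay above the others by a small margin, and the log2 fold change was -0.18 (SE 0.287, adjusted p = 0.863).

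P2ry2 answers ATP and UTP. Its promoter held 29.9, 26.9 and 37.6 normalized tags in untreated CD45.1 and 44.2, 36.8 and 32.5 in CD45.2, and the populations overlapped (log2 fold change -0.26, SE 0.322, adjusted p = 0.747). The intergenic peak at -16554 bp was lower in CD45.1, at 10.3, 13.2 and 15.8 against 32.8, 27.9 and 26.8. The groups did not overlap, and the log2 fold change was -1.18 (SE 0.420, adjusted p = 0.0354). This call was lost with the mouse as a block (0.154), with size factors from total tags (0.159), without the CD45.2 library of mouse 4 (0.0721) and without any other single library (0.0535 to 0.207). After LPS the promoter held 24.7, 16.96 and 23.1 against 38.5, 27.0 and 28.8, without overlap (log2 fold change -0.51, SE 0.374, adjusted p = 0.598). The most accessible LPS peak, at -38862 bp, held 32.3 ± 6.81 and 35.8 ± 7.23 (adjusted p = 0.906). Summed over its 9 peaks after LPS, P2ry2 held 160, 132 and 140 in CD45.1 and 186, 221 and 207 in CD45.2. The groups did not overlap, with a log2 fold change of -0.51 (SE 0.181). The adjusted p was 0.0643 in DESeq2, 0.0458 in edgeR and 0.0406 without the CD45.2 LPS library of mouse 1. In DESeq2 it was 0.430 with the mouse as a block and up to 0.472 with another single library left out. In untreated mice the sums were 179, 173 and 218 against 219, 241 and 229 (log2 fold change -0.28, SE 0.148, adjusted p = 0.240).

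P2ry14 answers UDP-glucose and lies within an intron of Med12l, next to the microglial receptors P2ry12 and P2ry13. All 4 of its untreated peaks had fitted fold changes over 0, with none past the limit in DESeq2. The smallest adjusted p was 0.169, at 10078 bp, where edgeR gave 0.0414. The promoter held 9.80, 12.3 and 20.7 in CD45.1 and 4.10, 9.68 and 12.2 in CD45.2, with overlap. The most accessible peak, at 10662 bp, held 114 ± 20.5 and 91.2 ± 14.3 (adjusted p = 0.417), and after LPS its counterpart at 10675 bp held 64.7 ± 14.7 and 54.9 ± 9.46 (adjusted p = 0.789). The untreated gene sums were 204, 223 and 187 against 141, 142 and 183. Every CD45.1 library stood above the CD45.2 libraries, with a log2 fold change of 0.39 (SE 0.162) and an adjusted p of 0.0941 in DESeq2 and 0.0427 in edgeR. P2ry10 on chromosome X had no peak. Its neighbour P2ry10b, listed under the name A630033H20Rik, had 4 untreated peaks summing to 76.9 ± 4.68 and 76.7 ± 9.24, and 5 after LPS summing to 102 ± 19.8 and 65.3 ± 14.8 (adjusted p = 0.991 and 0.0696).

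Adora2a, an adenosine receptor that raises cyclic AMP and is tied to the retraction of microglial processes, had the clearest difference between the populations. The peak at -16868 bp held 47.6, 46.1 and 70.8 normalized tags in CD45.1 libraries of mice 4, 5 and 6 and 4.92, 2.32 and 3.25 in CD45.2. Every CD45.1 library was far above every CD45.2 library, at 54.8 ± 13.9 against 3.50 ± 1.32 (SD, n = 3), a log2 fold change of 4.08 (SE 0.554, adjusted p = 4.72e-11). Without the CD45.2 library of mouse 4 it was 4.28 (adjusted p = 1.19e-09). This peak had been called in 3 of the 6 library lists and lies in an intron of the neighbouring gene Specc1l, as do all 4 peaks upstream of Adora2a. The unnormalized counts were 51, 50.5 and 65 against 3, 3 and 4 tags. Only CD45.1 libraries took the peak past the filter of more than 10 tags, and the tests do not allow for that selection. After LPS the overlapping peak at -16882 bp (chr10:74762654-74762827) held 30.3, 27.4 and 30.7 in CD45.1 libraries of mice 1, 2 and 3 and 1.75, 5.23 and 3.27 in CD45.2. The gap between the groups was again complete, at 29.5 ± 1.80 against 3.42 ± 1.75, a log2 fold change of 2.97 (SE 0.567, adjusted p = 2.29e-05). Leaving out any 1 LPS library kept the call (adjusted p from 3.30e-04 to 0.00474). The unnormalized counts were 37.5, 21 and 32.5 against 1, 6 and 5.5 tags, so this peak too passed the filter only through CD45.1 libraries. The separation in either treatment is therefore subject to that selection.

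**Figure D3:**
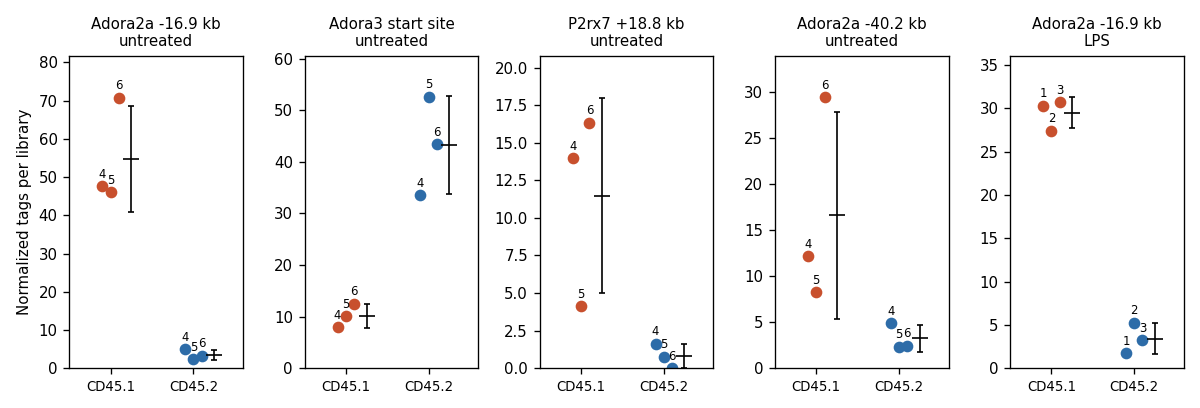
Normalized tags (y axis, from 0) in each library at the member peaks that passed the study's limits, CD45.1 in orange and CD45.2 in blue, points numbered by mouse, with mean and SD of 3 mice. At both Adora2a upstream panels nearest to the gene and at the Adora3 start site the groups are separated widely, while the P2rx7 and more distant Adora2a panels rest on few tags.

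The second Adora2a peak, at -40247 bp, held 12.1, 8.22 and 29.4 normalized tags in the CD45.1 libraries and 4.92, 2.32 and 2.44 in CD45.2. The groups did not overlap, but mouse 6 carried most of the CD45.1 signal. This peak also passed the filter only through CD45.1 libraries. The log2 fold change was 2.46 (SE 0.741, adjusted p = 0.00908), and it was 2.77 (0.00850) without the CD45.2 library of mouse 4. With the mouse as a block the adjusted p was 0.0658. It was 0.230 without the CD45.1 library of mouse 6, 0.0269 without that of mouse 4, and 0.108 and 0.0906 without the CD45.2 libraries of mice 5 and 6. After LPS the wider peak at -40221 bp, which reaches into a coding exon of Specc1l, held 10.1, 11.7 and 28.8 in CD45.1 and 2.63, 4.80 and 8.61 in CD45.2. Again no libraries overlapped and mouse 3 was highest, with a log2 fold change of 1.45 (SE 0.625, adjusted p = 0.182 in DESeq2 and 0.0311 in edgeR).

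No other Adora2a peak passed the test. The most accessible one, at -34034 bp, held 80.1 ± 17.3 and 60.7 ± 9.07 with overlapping libraries (log2 fold change 0.37, SE 0.245, adjusted p = 0.397). The peak at 199 bp, in the first untranslated exon of Adora2a, held 24.5 ± 2.79 and 17.3 ± 7.46 (adjusted p = 0.605). Summed over 6 peaks, untreated Adora2a held 170, 187 and 255 in CD45.1 libraries and 89.1, 95.1 and 122 in CD45.2. The groups did not overlap, and the log2 fold change was 0.98 (SE 0.191, adjusted p = 6.99e-06). This sum includes the called peaks at -16868 and -40247 bp, so it is no separate support for them. Without the CD45.2 library of mouse 4 the adjusted p was 4.64e-04, and with size factors from total tags it was 0.196. After LPS, with 9 peaks, the sums overlapped at 147, 133 and 219 against 115, 100 and 151 (log2 fold change 0.44, SE 0.231, adjusted p = 0.323).

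Adora3, an adenosine receptor of microglia that lowers cyclic AMP, differed in the other direction, at its promoter. The promoter peak at -19 bp held 7.93, 10.04 and 12.5 normalized tags in the CD45.1 libraries and 33.6, 52.6 and 43.4 in CD45.2. The highest CD45.1 library was well under the lowest CD45.2 library, at 10.2 ± 2.30 against 43.2 ± 9.52, a log2 fold change of -2.12 (SE 0.414, adjusted p = 1.14e-05). Without the CD45.2 library of mouse 4 it was -2.27 (adjusted p = 2.64e-06). Without the CD45.1 library of mouse 4 or the CD45.2 library of mouse 5 it was -1.92 and -1.94, under 4-fold, with adjusted p of 0.00166 and 0.00552. After LPS the start site was covered by other peaks. The one at 69 bp, annotated as promoter, held 1.62, 5.22 and 1.89 in CD45.1 and 8.76, 7.41 and 6.83 in CD45.2. The groups did not overlap (log2 fold change -1.46, SE 0.850, adjusted p = 0.431). The unnormalized counts were 2, 4 and 2 tags against 5, 8.5 and 11.5, and the peak had been found in 1 library list. Only a CD45.2 library took it past the filter of more than 10 tags, so this separation is no support for the untreated call. The one at 240 bp, in the untranslated first exon, held 12.1, 14.3 and 11.3 against 21.9, 24.9 and 25.2, also without overlap (log2 fold change -0.92, SE 0.443, adjusted p = 0.270).

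The 7 other untreated Adora3 peaks lay in introns and none passed the limit. The most accessible, at -3531 bp, held 68.1, 93.6 and 83.9 in CD45.1 and 74.6, 102 and 92.5 in CD45.2, with overlapping libraries (log2 fold change -0.16, SE 0.218, adjusted p = 0.774). After LPS the peak at 6250 bp held 39.5 ± 5.52 and 41.9 ± 1.80 (adjusted p = 0.951), and the one at -5891 bp, with nearly the same mean over both populations, held means of 46.7 and 34.4 (adjusted p = 0.536). Summed over 8 peaks the gene held 470 ± 34.5 and 522 ± 45.7 in untreated cells (log2 fold change -0.16, SE 0.112, adjusted p = 0.460). After LPS the sums were 198 ± 24.8 and 196 ± 7.15 (adjusted p = 0.975). The annotation holds a pair of overlapping gene models under the name Adora3, and the intronic peaks lie in introns of the longer transcript NM_027025. At Adora2a, then, the difference lay upstream and the start site did not pass. At Adora3 it lay at the start site, and the peaks in introns of NM_027025, most of them upstream of that start site, did not pass.

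**Figure D4:**
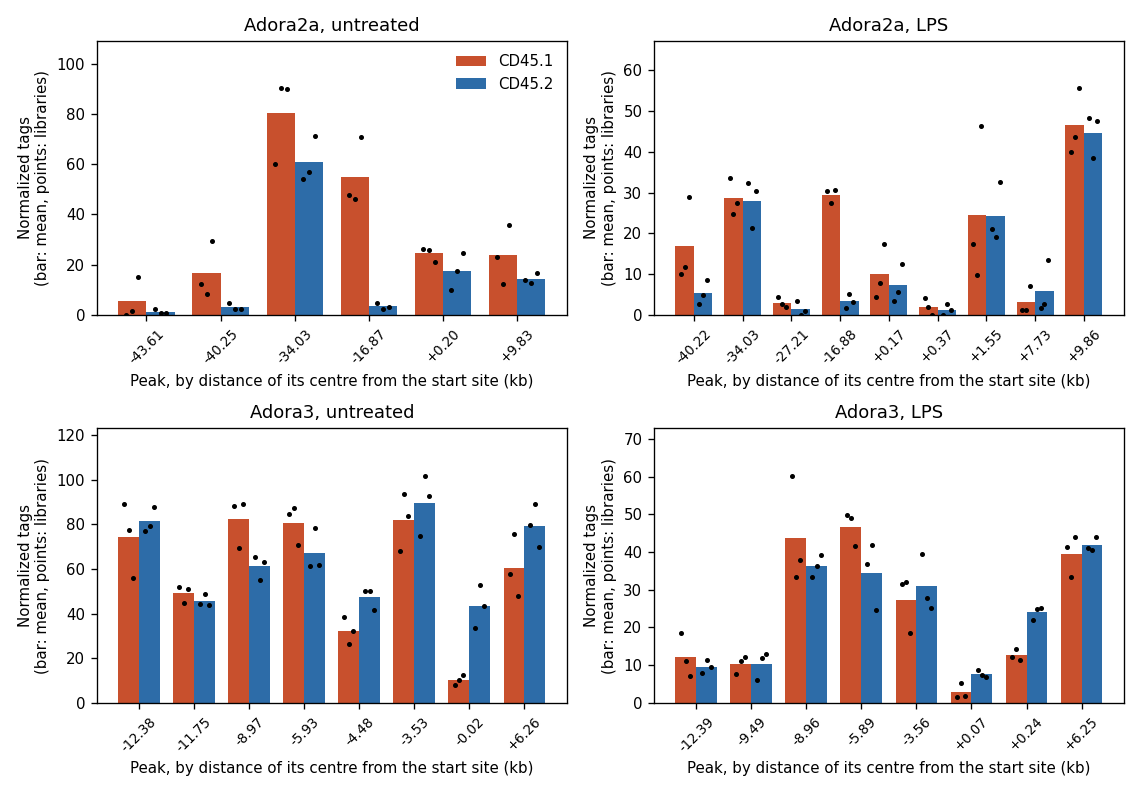
Normalized tags at every peak of Adora2a (top) and Adora3 (bottom), untreated (left) and LPS (right), ordered by distance from the start site (x axis); bars are means of 3 mice, from 0, points are libraries, CD45.1 in orange and CD45.2 in blue. The Adora2a peak nearest upstream is open in CD45.1 and close to 0 in CD45.2 in both treatments, and the Adora3 start site is lower in CD45.1.

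At the ectonucleotidases no peak passed the test in DESeq2, while edgeR called 3 in untreated mice. Entpd1 had the most peaks, 23 untreated and 16 after LPS, with smallest adjusted p of 0.0944 and 0.628 in DESeq2. Its intron peak at 69161 bp held 15.4, 25.6 and 20.2 in untreated CD45.1 and 33.6, 35.99 and 40.6 in CD45.2, without overlap (log2 fold change -0.87, SE 0.363, adjusted p = 0.0944 in DESeq2 and 0.00949 in edgeR). The peak at -21007 bp was the other way, with 16.8 ± 9.49 against 5.99 ± 1.68 (log2 fold change 1.47, SE 0.632, adjusted p = 0.106 in DESeq2 and 0.0326 in edgeR). The upstream promoter of Entpd1 at -49 bp held 155, 150 and 194 normalized tags in untreated CD45.1 and 148, 113 and 135 in CD45.2. The CD45.1 libraries lay just above the others, with a log2 fold change of 0.35 (SE 0.176, adjusted p = 0.208). After LPS that promoter held 76.1 ± 4.81 and 62.3 ± 1.91 (log2 fold change 0.28, SE 0.239, adjusted p = 0.674). The wider LPS peak, at -53 bp, also overlaps an exon of the neighbouring gene Tctn3. The inner promoter at -32 bp held 41.0 ± 2.96 and 37.9 ± 7.57 in untreated mice (adjusted p = 0.930) and had no LPS peak. Summed over all peaks the log2 fold change was 0.02 (SE 0.0997, adjusted p = 0.961) in untreated mice. After LPS it was -0.05 (SE 0.145, adjusted p = 0.928), and 2 SE on either side of both values lie within 2-fold.

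Nt5e had no peak annotated to its promoter. Its intergenic peak at -85867 bp held 53.6, 57.5 and 49.6 in untreated CD45.1 and 71.3, 54.6 and 57.6 in CD45.2, with overlap (log2 fold change -0.16, SE 0.252, adjusted p = 0.814). The peak at -54172 bp held 12.6, 3.20 and 18.5 against 3.28, 2.32 and 3.65. Mice 4 and 6 were higher in CD45.1 and mouse 5 overlapped (log2 fold change 2.00, SE 0.804, adjusted p = 0.0756 in DESeq2 and 0.0324 in edgeR). Only CD45.1 libraries took this peak past the filter. In DESeq2 its adjusted p was 0.287 with the mouse as a block and up to 0.436 with a library left out. After LPS the peak at -54138 bp (218 bp wide) held 27.1, 45.7 and 65.1 against 44.7, 23.6 and 20.2 (adjusted p = 0.375), and the narrower one at -85877 bp (181 bp) held means of 38.6 and 27.8 (adjusted p = 0.527). The LPS sums were 70.4, 90.1 and 126 against 82.8, 57.7 and 50.6, with overlap (log2 fold change 0.63, SE 0.272, adjusted p = 0.177).

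Of 32 other genes of the pathway, fixed as a list with earlier results of these data known, 26 were tested in each treatment. In untreated mice 3 were higher and 2 lower in CD45.1 (11.5% and 7.69%, against 7.35% and 7.46% of all genes), and after LPS 2 were higher and 1 lower (7.69% and 3.85%, against 4.08% and 2.98%). edgeR called 4 higher and 2 lower in each treatment, with backgrounds of 9.17% and 9.66% untreated and 5.76% and 4.14% after LPS. It added Slc17a9 in untreated mice (0.0420) and P2ry10b (0.0262), Enpp3 (0.0203) and Alpl (0.0335, lower) after LPS. The DESeq2 fold changes had medians of 0.10 and 0.16 on the log2 scale against -0.000955 and -0.0121 over all genes. P2ry1, a receptor for ADP, held 40.3, 40.3 and 98.7 in untreated CD45.1 and 6.48, 2.79 and 4.16 in CD45.2, with a log2 fold change of 3.80 (SE 0.538, adjusted p = 9.92e-11, and 8.46e-09 without the CD45.2 library of mouse 4). After LPS it held 28.7, 44.4 and 31.7 against 3.52, 1.75 and 3.27 (log2 fold change 3.57, SE 0.594, adjusted p = 1.72e-07). In both treatments every CD45.1 library stood above the rest. The unnormalized CD45.2 counts were 4, 3.5 and 5 tags untreated and 2, 2 and 5.5 after LPS. Only CD45.1 libraries took P2ry1 past the filter of more than 10 tags, and the tests do not allow for that selection. Enpp2 (autotaxin, which makes lysophosphatidic acid) went the other way, with 1.88, 4.17 and 4.75 against 76.1, 66.4 and 69.4 in untreated mice. After LPS it held 0.819, 1.99 and 3.36 against 55.5, 49.4 and 58.0. The log2 fold changes were -4.45 (SE 0.528, adjusted p = 3.41e-15, and 3.58e-12 without that library) and -4.55 (SE 0.624, adjusted p = 5.56e-11). Enpp2 passed the filter only through CD45.2 libraries. Its unnormalized CD45.1 counts were 2, 4.5 and 4.5 tags untreated and 1, 1.5 and 3.5 after LPS.

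In untreated mice Entpd4, an intracellular nucleotidase, held 56.2, 51.0 and 52.8 in CD45.1 and 7.29, 4.77 and 12.1 in CD45.2 (log2 fold change 2.78, SE 0.422, adjusted p = 2.03e-09). Enpp3, a surface pyrophosphatase, held 34.7, 40.3 and 40.1 against 13.8, 9.15 and 11.2 (log2 fold change 1.79, SE 0.404, adjusted p = 1.65e-04). Both were higher in every CD45.1 library, and without the CD45.2 library of mouse 4 the adjusted p were 2.66e-07 and 9.69e-04. After LPS they held 27.3 ± 7.55 against 11.7 ± 5.76 (adjusted p = 0.149) and 20.6 ± 7.26 against 7.80 ± 4.24 (adjusted p = 0.0574). Alpl, the alkaline phosphatase, was lower, at 78.8 ± 11 against 129 ± 22.7 (log2 fold change -0.72, SE 0.205, adjusted p = 0.00451). The adjusted p was 0.0696 with the mouse as a block, 0.00278 without the CD45.2 library of mouse 4, and 0.0810 and 0.128 without the CD45.2 libraries of mice 5 and 6. P2rx6 was higher after LPS, at 32.7 ± 7.40 against 14.7 ± 2.78 (adjusted p = 0.0488, 0.303 with the block and 0.0962 to 0.288 without any 1 of the 6 libraries). P2ry12 held 268 ± 47.4 and 265 ± 25.01 and P2ry13 508 ± 78.1 and 543 ± 12.1 in untreated mice (adjusted p = 0.959 and 0.764).

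To compare LPS with untreated cells, peaks of the 2 tables were matched where they overlapped by at least 50% of both, which gave 45 member pairs, 44 of them tested, of 39235 tested pairs. Treatment goes together with the table, and so with the set of peaks, their width (a median of 132 bp untreated and 167 bp LPS) and depth, and these cannot be told apart from LPS. Counts below are normalized over all 12 libraries, on another scale than those above, and widths are given. With calls set at over 2-fold and an adjusted p under 0.05, 5 member pairs were higher and 6 lower after LPS in CD45.1 (11.4% and 13.6% of the tested pairs, against 6.78% and 4.93% of all pairs). In CD45.2 4 were higher and 3 lower (9.09% and 6.82%, against 7.69% and 3.69%). Of them, 7 were called in both populations in the same direction and 0 in opposite ones. Without the CD45.2 library of untreated mouse 4 the counts were 5 and 7, and 4 and 3. After subtracting the log2 ratio of the widths, 3 of 5 and 5 of 6 in CD45.1 and 3 of 4 and 2 of 3 in CD45.2 stayed beyond 2-fold.

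**Figure D5:**
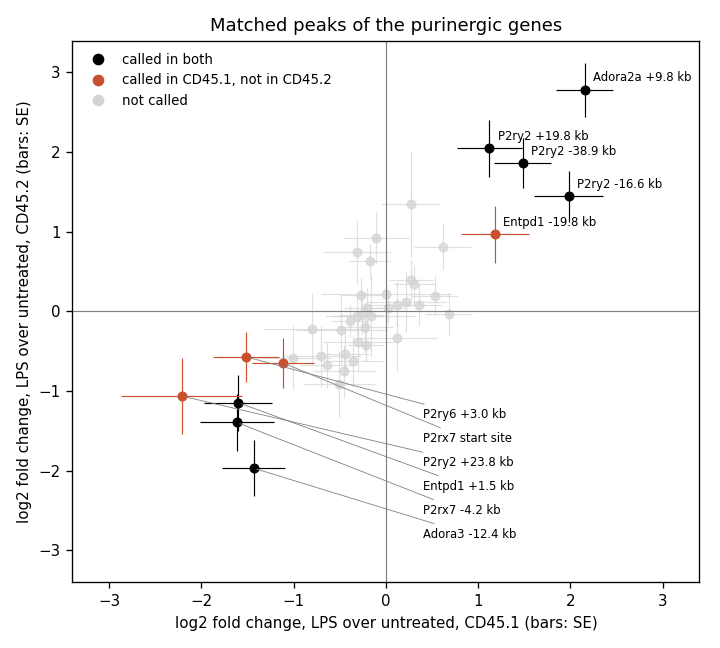
Log2 fold change of LPS over untreated in CD45.1 (x axis) and in CD45.2 (y axis) for the matched member peaks, bars are SE; black points were called in both populations, orange points in CD45.1 and not in CD45.2, grey points in neither. Of the called points, the Adora2a peak, 3 P2ry2 peaks and 1 Entpd1 peak lie to the upper right, and the Adora3, P2rx7 and P2ry6 peaks with 1 peak each of Entpd1 and P2ry2 lie to the lower left.

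The largest gain was at the Adora2a intron peak at 9832 bp (chr10:74789396-74789512 untreated, 117 bp, and 186 bp after LPS). CD45.1 cells held 15.2, 8.27 and 23.6 normalized tags there untreated and 58.0, 65.1 and 82.5 after LPS, and CD45.2 cells held 9.25, 8.70 and 11.3 untreated and 69.4, 55.6 and 70.0 after LPS. Every LPS library was above every untreated one. The log2 fold changes were 2.15 (SE 0.308, adjusted p = 3.65e-10) and 2.78 (SE 0.339, adjusted p = 6.09e-14), against a log2 width ratio of 0.67. It was the most accessible Adora2a peak after LPS, and the populations overlapped there, with 46.5 ± 8.18 and 44.7 ± 5.47 in the LPS table. By contrast the Adora2a peak at -16868 bp that separates the populations held 36.4 ± 8.81 untreated and 43.4 ± 2.37 after LPS in CD45.1 (log2 fold change 0.27, SE 0.319, adjusted p = 0.602). In CD45.2 it held 2.35 ± 0.851 and 4.97 ± 2.53 (adjusted p = 0.158).

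At P2ry2, 3 intergenic peaks were higher after LPS in both populations. The peak at -38926 bp held 15.6, 15.0 and 21.5 untreated and 58.0, 43.7 and 40.6 after LPS in CD45.1. In CD45.2 it held 13.6, 15.3 and 14.8 and then 40.4, 61.3 and 54.7. All LPS libraries were above the untreated ones, with log2 fold changes of 1.48 (SE 0.306, adjusted p = 4.00e-05) and 1.86 (SE 0.310, adjusted p = 1.19e-07) and widths of 158 and 223 bp, whose log2 ratio of 0.50 takes the CD45.1 change under 2-fold. The peak at -16554 bp held 6.85, 8.88 and 10.4 and then 28.1, 34.0 and 37.8 in CD45.1, and 21.8, 18.97 and 18.1 and then 30.3, 69.5 and 52.1 in CD45.2. The log2 fold changes were 1.98 (SE 0.375, adjusted p = 5.35e-06) and 1.44 (SE 0.316, adjusted p = 1.19e-04). Its width went from 120 to 234 bp, a log2 ratio of 0.96, which takes the CD45.2 change under 2-fold. The peak at 19847 bp held 14.9 ± 5.87 and then 31.2 ± 10.5 in CD45.1 (log2 fold change 1.12, SE 0.356, adjusted p = 0.0133). In CD45.2 it held 11.05 ± 1.63 and then 45.5 ± 5.68 (2.05, SE 0.358, adjusted p = 5.43e-07), with widths of 136 and 156 bp, whose log2 ratio of 0.20 also takes the CD45.1 change under 2-fold. The CD45.1 call there was lost with total-tag scaling (0.0993). It was also lost without the CD45.1 libraries of untreated mouse 4 (0.0616) or 5 (0.104) or of LPS mouse 1 (0.157).

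The promoter of P2ry2 did not pass 2-fold, at 20.9 ± 3.44 and then 31.8 ± 5.67 in CD45.1 and 25.5 ± 3.72 and then 45.7 ± 8.63 in CD45.2 (log2 fold changes 0.62 and 0.81). A further P2ry2 peak, at 23752 bp, was lower in CD45.1, at 14.6, 14.4 and 17.6 and then 2.93, 1.94 and 6.29 (log2 fold change -2.21, SE 0.655, adjusted p = 0.00712). The adjusted p was 0.0552 without the CD45.1 LPS library of mouse 1. In CD45.2 it held 19.7 ± 4.37 and then 10.1 ± 2.60 (log2 fold change -1.06, SE 0.472, adjusted p = 0.109). The sole other gain was at Entpd1, at -19824 bp, from 15.1 ± 8.06 to 33.8 ± 3.42 in CD45.1 (log2 fold change 1.18, SE 0.366, adjusted p = 0.0108). In CD45.2 it went from 18.1 ± 5.07 to 35.1 ± 8.38 (0.97, SE 0.355, adjusted p = 0.0412), under 2-fold. The CD45.1 call was lost with total-tag scaling (0.104) and without the CD45.1 libraries of untreated mouse 4 (0.0947) or 5 (0.0778) or LPS mouse 3 (0.0616).

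The other losses after LPS lay at Adora3, P2rx7, Entpd1 and P2ry6. The Adora3 intron peak at -12376 bp held 59.4, 52.0 and 36.9 and then 27.0, 16.5 and 10.5 in CD45.1, and 51.1, 54.0 and 59.3 and then 11.3, 16.4 and 14 in CD45.2. All LPS libraries were lower, with log2 fold changes of -1.43 (SE 0.339, adjusted p = 4.55e-04) and -1.97 (SE 0.355, adjusted p = 1.35e-06). Here the LPS peak was narrower, 169 against 236 bp, a log2 ratio of -0.48, which takes the CD45.1 change under 2-fold. The intergenic P2rx7 peak at -4208 bp held 31.7, 36.7 and 35.5 and then 17.6, 8.75 and 6.995 in CD45.1, and 34.8, 50.1 and 39.3 and then 18.9, 20.9 and 10.1 in CD45.2. Its widths were 134 and 142 bp, and the log2 fold changes were -1.62 (SE 0.404, adjusted p = 0.00100) and -1.39 (SE 0.363, adjusted p = 0.00176). Without the CD45.2 LPS library of mouse 3 the latter had an adjusted p of 0.0783.

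The P2rx7 promoter held 38.0, 36.1 and 44.8 and then 22.3, 20.4 and 12.6 in CD45.1 (log2 fold change -1.12, SE 0.333, adjusted p = 0.00783), while its LPS peak was the wider one (177 against 138 bp). In CD45.2 it held 33.2, 41.1 and 37.9 and then 23.96, 23.4 and 24.9 (log2 fold change -0.65, SE 0.310, adjusted p = 0.145). Its call in CD45.1 was lost with total-tag scaling (0.0751) and without the CD45.1 LPS library of mouse 3 (0.09997). The Entpd1 intron peak at 1497 bp went from 42.0 ± 4.40 to 13.8 ± 1.97 in CD45.1 (log2 fold change -1.60, SE 0.369, adjusted p = 3.19e-04) and from 36.2 ± 6.56 to 16.3 ± 5.65 in CD45.2 (-1.15, SE 0.350, adjusted p = 0.0103). Its LPS peak was narrower (131 against 197 bp, a log2 ratio of -0.59), which takes the CD45.2 change under 2-fold. The CD45.2 call was lost with total-tag scaling (0.0559) and without the CD45.2 libraries of untreated mouse 5 (0.0848) or 6 (0.0591) or LPS mouse 3 (0.155). The P2ry6 intron peak at 3041 bp went from 44.8 ± 8.14 to 15.4 ± 9.99 in CD45.1 (log2 fold change -1.52, SE 0.359, adjusted p = 4.79e-04, widths of 160 and 194 bp) and from 43.0 ± 4.49 to 29.9 ± 7.12 in CD45.2 (-0.57, SE 0.316, adjusted p = 0.221).

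Whether LPS moved the populations unequally was tested by the interaction of population and treatment. It called 0 member pairs (DESeq2, adjusted p under 0.05, and 0 with edgeR), against 0.245% of all pairs. At an unadjusted p under 0.05 there were 4 pairs with a lower ratio of CD45.1 to CD45.2 after LPS and 0 with a higher one. The share of all pairs at that unadjusted limit is not given, so these counts are not read as a trend of the purinergic genes. Of the 44 pairs, 6 had no adjusted p because of low counts, and the smallest of the other 38 was 0.546, at the P2ry6 promoter. There CD45.1 held 67.8, 70.1 and 70.9 untreated and 61.5, 61.2 and 61.6 after LPS, and CD45.2 held 39.2, 54.8 and 39.0 untreated and 63.1, 70.7 and 71.3 after LPS. The untreated gap between the populations was not seen after LPS, and the interaction was -0.80 on the log2 scale (SE 0.317). At the Adora2a peak at -16868 bp it was -1.08 (SE 0.736, adjusted p = 0.953). Calls in CD45.1 and not in CD45.2, such as the P2rx7 promoter and P2ry6 intron peaks, are therefore not shown to differ between the populations.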

How the data were processed

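Brain macrophages of 4 groups of 3 mice were profiled. Per the submitters' processing notes the authors used bcl2fastq 2.17.1.14, Bowtie2, Picard 1.108 and HOMER with mm9. The authors called peaks in each library, merged the 6 lists of each treatment, annotated each peak to a start site and counted tags. The values the authors deposited are estimated counts, unnormalized, with 0.5 for each mate of a pair. They were rounded for the tests. No shift of read ends for the transposase is stated. The 12 libraries come from separate mice within a group.

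Peaks that reached more than 10 tags in any library of a table were fitted across the whole table with DESeq2 1.42.0 (R 4.3.3), Wald test, Benjamini-Hochberg adjustment, with population as the only term. A peak could pass this filter through 1 population alone, and the tests do not allow for that. The called peaks of P2rx7 at 18836 bp and of Adora2a at -16868, -40247 and (after LPS) -16882 bp passed it only through CD45.1 libraries. Normalized tags are counts divided by the DESeq2 size factors. Gene sums were tested over all genes in the same way, and matched peaks over 12 libraries with population, treatment and their interaction. The P2ry1 sums in both treatments and the untreated Ncr1 sum passed the filter only through CD45.1 libraries. Those of Enpp2 and Syt1 passed it only through CD45.2 libraries. Log2 fold changes are CD45.1 over CD45.2 or LPS over untreated. edgeR 4.0.16 (quasi-likelihood, TMM), size factors from total tags, other filters, the mouse as a block, a 2-fold limit, peaks within 100 kb, 80% overlap and leaving out each library were tried. The scripts were tested on simulated data.

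The series' design text states that both populations came from the same animal, so the mouse number pairs them. The deviations of paired libraries from their group means correlated with r of 0.0807, 0.0822 and 0.0873 in untreated mice and -0.0665, 0.0608 and 0.149 after LPS (across peaks), and those of different mice from -0.159 to 0.117. The blocked value is given where it changes a call at a member, pathway or marker gene.

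Named peaks were those called by the study's limits or in LPS against untreated, promoter peaks and the most accessible peak of each gene. Peaks outside this rule (such as P2rx4 at -5151 bp, Nt5e at -54172 bp, those called by edgeR alone and the LPS counterparts) were chosen after their values were seen. Other pathway genes were named where called. The members and lists were chosen with earlier results of these data known. Marker lists covered macrophages, microglia, T and NK cells, B cells, neutrophils, astrocytes, oligodendrocytes, neurons and endothelium, and 1 B cell marker is not reported here. Single-library peak lists were not used.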

Additional observations from a re-analysis of the deposited data

How the results depend on the processing

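Leaving out the CD45.2 library of untreated mouse 4 or any other single library was tried for every comparison. The limits are the 3 mice in a group, the low counts of the P2rx7 and distant Adora2a peaks, the 8 LPS and 1 untreated member peaks too low to test, and tables that differ with treatment. Of 324 values of the named peaks and genes under other settings, 306 kept their direction and side of the threshold, 11 lost a call, 2 gained one and 5 changed sign. Of 520 values with a library left out the numbers were 466, 33, 1 and 20. Scaling by total tags moved the median of all features by 0.14 for LPS peaks, 0.12 for LPS genes and -0.15 for LPS against untreated in CD45.2 (log2). It took the share of higher calls from 57.8% to 68.9% of LPS genes and from 57.9% to 69.7% for LPS against untreated in CD45.1.

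In untreated mice the 3 higher member peaks became 1 with total-tag scaling, 1 with a mean count of at least 20 and 1 with the mouse as a replicate block, and 1 to 3 with a library left out; the 1 lower peak became 0 to 1. The 1 higher gene became 2 with edgeR and 0 with total tags. After LPS the 1 higher peak became 0 with a mean count of at least 20, which removes that peak, and the 0 lower genes became 1 with edgeR and 0 to 1 with a library left out. For LPS against untreated, the 5 higher peaks in CD45.1 became 3 with total tags, 1 with 80% overlap and 3 to 5 with a library left out. With 80% overlap the 6 lower became 2, and in CD45.2 the 4 higher became 1 and the 3 lower 1, as fewer pairs matched; with a library left out these were 5 to 7, 4 to 5 and 1 to 3. The block changed no other call of a named peak or gene than those given with the text. Over all LPS peaks edgeR called 880 lower by the study's limits, against 585 in DESeq2.

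Values that changed sign were near 0 and uncalled. With total tags they were 0.0445 for untreated Nt5e, 0.0694 for the LPS Adora3 peak at 6250 bp, and 0.00632, 0.0831 and 0.0843 for LPS P2rx4, P2rx7 and Entpd1. With a library left out the untreated values ranged from -0.0452 to 0.24 for the Entpd1 peak at -32 bp, -0.10 to 0.0941 for P2rx7, -0.0550 to 0.0879 for Entpd1 and -0.0837 to 0.0744 for Nt5e. After LPS they ranged from -0.0739 to 0.18 for the Adora2a peak at 9861 bp, -0.14 to 0.0156 for the Adora3 peak at 6250 bp, -0.0624 to 0.26 for the P2rx7 peak at 433 bp, -0.31 to 0.0639 for P2rx4, -0.24 to 0.12 for P2rx7 and -0.0823 to 0.10 for Adora3. The cause of the other changes was not tested.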
